A study of Danio rerio with 12 samples.

Results

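Zebrafish (Danio rerio) embryos at the sphere stage that had received Anp32e protein were compared with wild-type embryos at the shield stage, across every gene of the deposited count table. The comparison uses 4 of the 12 libraries of the series. The injected group has 2 libraries whose labels give sphere stage and Anp32e protein injection and give no strain and no hour. The injection is given in their mutation field, while their injection field reads NA. The wild-type group has 2 libraries of strain Tu at shield stage, 6 h after fertilization, without injection. No source used here states the genotype of the injected embryos or the origin and dose of the protein, and no sphere-stage group without injection is among the 12 libraries. Stage and injection therefore differ together between the groups and cannot be told apart in any value below. The same holds for strain and genotype, which may also differ because they are not given for the injected embryos. The other libraries are shield embryos of 3 anp32e genotypes (null of strain NHGRI, and maternal null and paternal null from crosses of Tu and NHGRI), which served as a second reference, and 2 libraries labelled sperm of null fish.

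The zebrafish embryo starts on RNA and protein that the mother loaded into the egg. At the blastula stages, which include sphere, the embryo's own genome becomes active, and maternal RNA is deadenylated and cleared. Shield marks the start of gastrulation, when the dorsal organizer, the mesoderm and endoderm, the ventral BMP domain, the outer enveloping layer and the yolk syncytial layer are all in place. The chaperone Anp32e acts on nucleosomes, from which it strips the histone variant H2A.Z.

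Total counts were 24.1 and 23.0 M in the injected libraries and 25.1 and 13.5 M in the wild-type libraries. The 2 injected libraries were near-identical: their chi-square over genes was 1.055 per degree of freedom, where counting noise alone gives 1 (the null, maternal null and paternal null pairs had 1.052 to 1.172). Each such pair was counted as 1 sample. The ratio was 95.18 for the wild-type libraries, which were kept as 2 samples. The injected group thus rests on 1 sample, which is assumed in the test to vary like the others. Besides the wild-type pair, only the pair labelled sperm (ratio 42.86) was kept as 2 samples. The p-values therefore rest on the spread within these 2 pairs, and the summed shield groups add none. Fits without 1 wild-type library rest on the pair labelled sperm alone, so their counts do not test the calls. Nothing in the labels says that replicates came from separate clutches. The libraries labelled sperm stood apart from that label: the fixed list of oocyte transcripts summed to 32400 and 37980 CPM in them (counts scaled to a common library total), and the list of sperm and testis genes to 242 and 250 CPM. They were fitted with the rest because they add to the estimate of the spread, and counts that move by over 1.5 times without them are given beside each result.

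Levels below are CPM on library totals scaled by TMM, a normalization that sets the bulk of genes equal between samples. The TMM factor was 1.25 for the injected sample and 1.053 and 0.8721 for wild-type replicates 1 and 2. Sums of CPM are therefore not shares of a library. Fold changes are log2 of injected over wild type with a standard error (SE), and adjusted p-values are from edgeR's quasi-likelihood test with Benjamini-Hochberg adjustment over all genes tested. The SE was derived from that test, as the size of the log2 fold change over the square root of the F statistic. A gene is said to have risen or fallen where it passed an adjusted p of 0.05 in that fit and also in a fit with every library as its own replicate. The RNA is from whole embryos, so fewer cells of a type and less RNA per cell cannot be told apart.

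The mRNA of anp32e itself (ENSDARG00000054804, chromosome 19, 42758985 to 42772378 in the table's Zv10 coordinates) was lower in the injected embryos. It stood at 783 and 789 CPM in the injected libraries, against 2170 and 3638 CPM in the wild-type libraries. Both injected libraries lay below both wild-type libraries. The log2 fold change was -1.89 ± 0.48 (SE), with an adjusted p of 0.017 that became 0.083 without the libraries labelled sperm. Maternal null embryos had 1283 and 1298 CPM, paternal null embryos 1476 and 1468 CPM and null embryos 87.0 and 86.2 CPM. The libraries count RNA, so the injected protein is not part of this value.

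Of 22712 genes tested, 3562 rose (15.7%) and 2864 fell (12.6%) in injected sphere embryos relative to wild-type shield embryos. The median change was 2.06 log2 units among genes that rose and 2.16 units among genes that fell. A change of over 4-fold was fitted for 1880 of the genes that rose and 1607 of those that fell, and one of over 16-fold for 243 and 411. Genes that rose summed to 123700 and 124000 CPM in the injected libraries, against 39110 and 30070 CPM in the wild-type libraries. Genes that fell summed to 74190 and 74100 CPM in the injected libraries, against 210900 and 315400 CPM in the wild-type libraries. Together 6514 genes (28.7%) passed in the fit of summed pairs and 6426 (28.3%) in both fits, and with every library as its own replicate 13540 of 21251 (63.7%) passed. The split moved with the scaling: 4213 genes were higher and 1481 lower with library totals only, and 3328 higher and 3356 lower with RLE, the size-factor scaling of DESeq2, in edgeR, against 3590 and 2924 with TMM. DESeq2, which changes the test as well, gave 2527 higher and 3090 lower. Among the 112 called genes that the rule names, the fitted change moved by over 1.5 times for 29 without wild-type replicate 1 and for 27 without replicate 2. The sign changed for 0 of the 112. Both wild-type values are therefore given beside most of the genes described, while some have the fold change alone. Over all genes tested, both injected libraries lay above both wild-type libraries for 40.7% and below both for 36.6%. Without the libraries labelled sperm, 2398 of the genes that rose and 1839 of those that fell also passed the threshold.

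**Figure D1:**
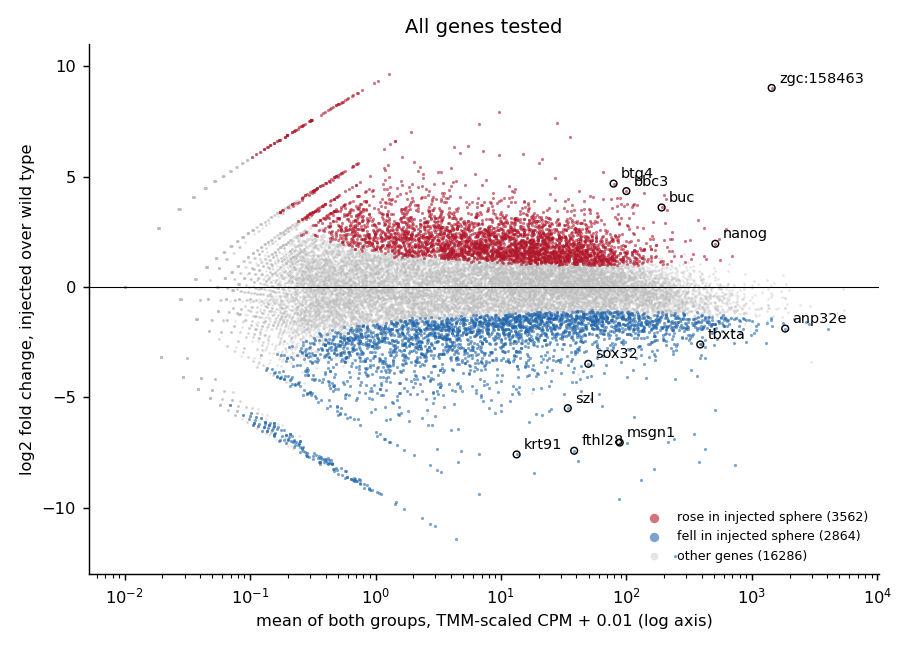
Log2 fold change of injected sphere over wild-type shield embryos against the mean level of both groups (TMM-scaled CPM, log axis) for the 22712 genes tested. Red points rose (3562), blue points fell (2864) and grey points were not called in both fits. Circled genes are named in the text. The diagonal streaks at low levels are genes with few or no counts in one of the groups.

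Maternal transcripts of the oocyte were the list that leaned most to the injected side. Of 45 members tested, 28 rose (62.2%, beside 15.7% of all genes tested), 2 fell (4.44%, beside 12.6%) and 15 were not called. Their median log2 fold change was 2.01, against 0.00206 over all genes. Their summed level was 6209 and 6189 CPM in the injected libraries and 3182 and 4016 CPM in the wild-type libraries. The anti-proliferative gene btg4, which in mouse recruits the deadenylase complex to maternal mRNA, was at 151 and 153 CPM in injected embryos, against 6.84 and 4.92 CPM in wild type. This is a 24.3-fold difference (log2 4.68 ± 0.41, adjusted p 0.00034), and every injected library was above all 8 shield libraries, the other 6 of which held 3.64 to 16.5 CPM. The claudins cldng and cldnd, proteins of tight junctions, rose by log2 4.26 ± 0.40 (adjusted p 0.00046) and 3.99 ± 0.41 (adjusted p 0.00051). The level of cldnd was 395 and 391 CPM in injected embryos and 29.4 and 20.0 CPM in wild type. The oocyte gene zar1 rose less, with 23.8 and 23.1 CPM in injected embryos and 12.4 and 9.58 CPM in wild type (log2 1.09 ± 0.37, adjusted p 0.048, and 0.19 without the libraries labelled sperm). The 2 members that fell were ybx1, an RNA-binding protein of the Y-box family (302 and 301 CPM in injected embryos, 919 and 1673 CPM in wild type), and dact1, a modulator of Wnt signalling (13.1 and 13.0 CPM in injected embryos, 38.8 and 53.3 CPM in wild type). Of the uncalled members the most abundant were the cyclin gene ccnb2 (log2 0.92 ± 0.36, adjusted p 0.075) and cdc20, an activator of the anaphase-promoting complex (log2 -0.31 ± 0.43, adjusted p 0.61).

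Among genes of the germ plasm, which specifies the germ line, and the piRNA pathway, which silences transposons there, all members called rose. Of 25 members 12 rose (48%, beside 15.7% of all genes tested), 0 fell (beside 12.6%) and 13 were not called in both fits. The median log2 fold change was 0.85. In edgeR 1 member was lower at an unadjusted p under 0.05, DESeq2 called 0 lower, and 1 was lower without wild-type replicate 2. Transcripts of buc, the organizer of the germ plasm, were at 353 CPM in both injected libraries and at 34.7 and 23.4 CPM in wild type (log2 3.60 ± 0.39, adjusted p 0.00068). The piRNA factor asz1 rose by log2 3.08 ± 0.45 (adjusted p 0.0017) and the germ cell RNA-binding protein gene dazl by 3.01 ± 0.38 (adjusted p 0.0011). The germ cell gene nanos3 had 36.3 and 37.2 CPM in injected embryos and 8.05 and 11.2 CPM in wild type. By contrast ddx4 (vasa), an RNA helicase of germ cells, stood at 115 and 116 CPM in injected embryos and 123 and 112 CPM in wild type, and the wild-type libraries spanned the injected ones (log2 -0.03 ± 0.36, adjusted p 0.97). The piRNA factor gtsf1 (447 and 442 CPM in injected embryos, 439 and 578 CPM in wild type) and a hook2 copy (ENSDARG00000099235, log2 0.73 ± 0.36, adjusted p 0.15) were also not called.

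The machinery that clears maternal mRNA gave a weaker lean. Of 50 members 14 rose (28%), 4 fell (8%) and 32 were not called, with a median of 0.45. Over all genes tested 15.7% rose and 12.6% fell. Without the libraries labelled sperm 6 of the 14 also passed, and without wild-type replicate 1 the number higher was 24. Besides btg4 the largest rises were those of tnrc6c2, of the GW182 family that carries out microRNA silencing (62.9 and 62.6 CPM in injected embryos, 13.4 and 5.26 CPM in wild type), and cth1, a zinc finger mRNA decay factor (396 and 389 CPM in injected embryos, 99.9 and 40.3 CPM in wild type). The 4 that fell were ybx1, the deadenylase subunit gene cnot3, the GW182 gene tnrc6a and the RNA-stabilizing elavl1. Of these cnot3 was at 41.9 and 40.3 CPM in injected embryos and 100 and 126 CPM in wild type (log2 -1.46 ± 0.40, adjusted p 0.021), and elavl1 fell by 1.82 ± 0.46 (adjusted p 0.015). The number lower was 11 without wild-type replicate 1, 8 without replicate 2, and 2 without the libraries labelled sperm. The abundant RNA-binding genes khsrp (log2 -0.67 ± 0.43, adjusted p 0.25) and elavl1a (-1.18 ± 0.43, adjusted p 0.063) were not called.

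In the list of zygotic activation factors, nanog and sox19b rose, sox2, sox3 and sox19a fell, and pou5f3 was not called. Of 17 members 5 rose (29.4%) and 3 fell (17.6%), beside 15.7% and 12.6% of all genes tested. The other 9 were not called, and the median of the list was -0.20. With library totals only it was 0.14, where the median of all genes was 0.37. The homeobox gene nanog had 822 and 805 CPM in injected embryos and 308 and 111 CPM in wild type (log2 1.96 ± 0.51, adjusted p 0.018). The maternal SoxB1 gene sox19b had 326 and 327 CPM in injected embryos and 77.7 and 106 CPM in wild type (log2 1.83 ± 0.37, adjusted p 0.0060). The T-box gene eomes (log2 3.05 ± 0.45), the TATA-binding protein gene tbp (1.43 ± 0.37) and its germ-line paralog tbpl2 (3.29 ± 0.45) also rose. The 3 that fell were also SoxB1 genes: sox2 (8.38 and 8.01 CPM in injected embryos, 95.6 and 152 CPM in wild type), sox3 (168 and 161 CPM in injected embryos, 546 and 461 CPM in wild type) and sox19a (215 and 210 CPM in injected embryos, 604 and 848 CPM in wild type). Of the 3, only sox2 passed without the libraries labelled sperm (adjusted p 3.6e-06, against 0.088 for sox3 and 0.074 for sox19a). Members lower numbered 6 without wild-type replicate 1 and 7 without replicate 2. The POU gene pou5f3, partner of the SoxB1 proteins, had 842 and 844 CPM in injected embryos and 1849 and 1728 CPM in wild type, groups that do not overlap but a difference that was not called (log2 -1.09 ± 0.42, adjusted p 0.077).

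**Figure D2:**
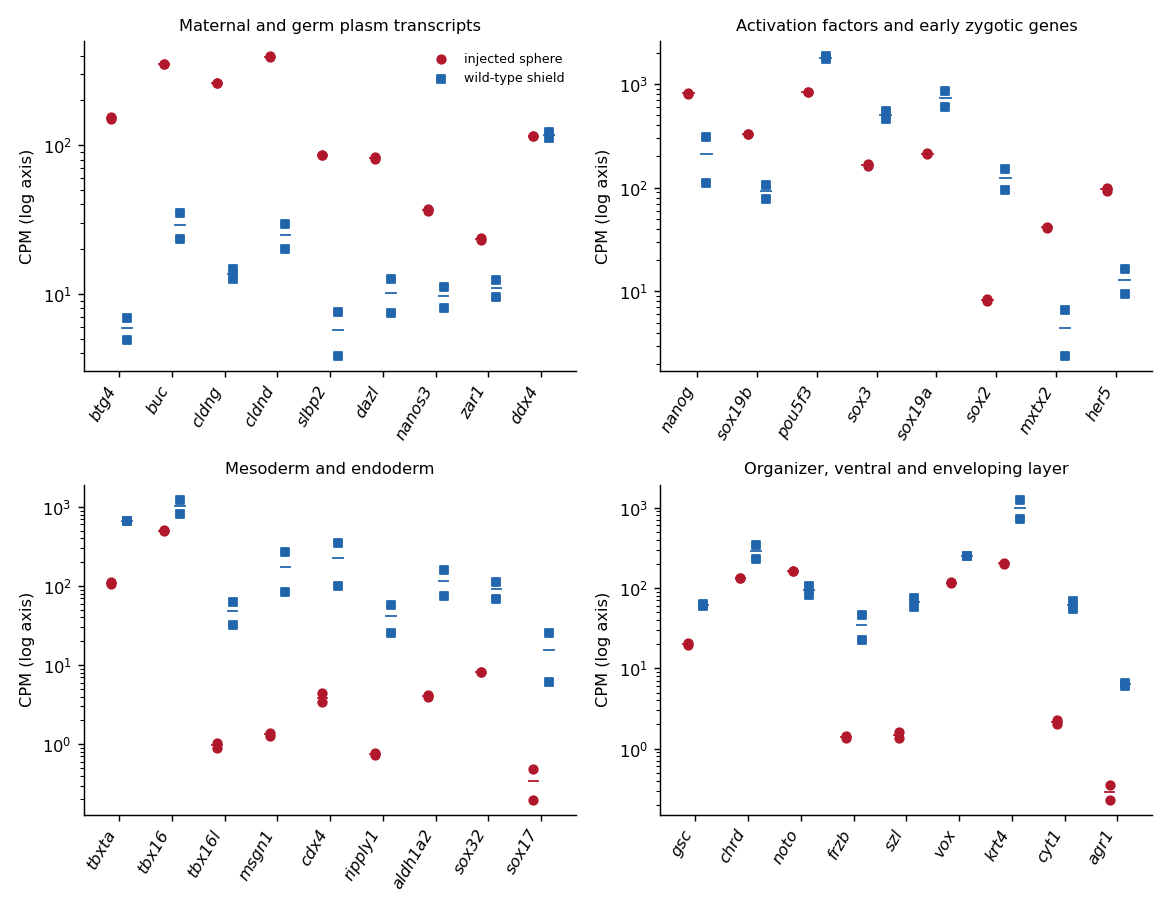
Levels (TMM-scaled CPM, log axis) of landmark genes in the injected sphere libraries (red circles) and the wild-type shield libraries (blue squares), with a bar at the mean of each group. In the top left panel the injected points lie above the wild-type points for every gene except ddx4, while in the bottom left panel they lie below for every gene. The injected points nearly coincide because the 2 libraries are near-identical.

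Genes of the early zygotic list, which also holds patterning genes such as otx2 and tbx16l, were mostly lower in the injected embryos. Of 59 early zygotic genes 6 rose (10.2%, beside 15.7% of all genes tested), 28 fell (47.5%, beside 12.6%) and 25 were not called. Their median was -1.29, and the 59 summed to 5557 and 5603 CPM in injected embryos and 13900 and 15970 CPM in wild type. The 6 that rose were mxtx2, her5, aplnrb, isg15, blf and an irx1 copy (ENSDARG00000101831). The Hairy-related repressor gene her5 had 93.5 and 99.8 CPM in injected embryos and 16.4 and 9.41 CPM in wild type (log2 2.90 ± 0.40, adjusted p 0.0014). The apelin receptor gene aplnrb, used by mesendoderm cells in migration, had 399 and 389 CPM in injected embryos and 131 and 166 CPM in wild type (log2 1.41 ± 0.35, adjusted p 0.014, and 0.071 without the libraries labelled sperm). Of the ventral repressors, vox had 117 CPM in both injected libraries and 250 and 249 CPM in wild type (log2 -1.09 ± 0.51, adjusted p 0.13), and vent had 118 and 119 CPM in injected embryos and 197 and 135 CPM in wild type (adjusted p 0.35). Both were below the wild-type libraries in each injected library and neither was called. Transcripts of irx7 lay between the wild-type values (101 and 105 CPM in injected embryos, 57.3 and 121 CPM in wild type).

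In the Nodal pathway, which induces mesoderm and endoderm, 1 ligand gene and the endodermal factors fell, and other ligand genes were not called. Of 36 members 2 rose, 12 fell and 22 were not called, with a median of -0.85. Thus 5.56% rose and 33.3% fell, beside 15.7% and 12.6% of all genes tested. The number lower was 20 without wild-type replicate 2 and 6 with library totals only, and the number higher was 8 and 5 without wild-type replicate 1 and 2. Of the ligands, ndr1 (squint) had 13.2 and 14.5 CPM in injected embryos and 13.4 and 2.29 CPM in wild type and was not called (adjusted p 0.42). Transcripts of ndr2 (cyclops) fell to 11.6 and 10.2 CPM in injected embryos, against 28.1 and 30.2 CPM in wild type (log2 -1.41 ± 0.40, adjusted p 0.024, and 0.097 without the libraries labelled sperm). The maternal cofactor ligand gene gdf3 (vg1) had 381 and 388 CPM in injected embryos and 212 and 157 CPM in wild type and was not called (adjusted p 0.055). The 2 members that rose were eomes, at 64.3 and 67.5 CPM in injected embryos and 10.5 and 5.17 CPM in wild type, and the yolk syncytial homeobox gene mxtx2, at 42.2 and 40.8 CPM in injected embryos and 6.58 and 2.37 CPM in wild type. The endoderm determinant sox32 stood at 8.25 and 8.08 CPM in injected embryos, against 68.6 and 114 CPM in wild type (log2 -3.48 ± 0.50, adjusted p 0.0016). Its target sox17 stood at 0.20 and 0.49 CPM in injected embryos, against 6.08 and 25.4 CPM in wild type (log2 -5.50 ± 0.90, adjusted p 0.0025). For both genes the groups do not overlap, and sox17 was near the lower end of what the counts can measure in the injected libraries.

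Genes of the ventral BMP domain mostly fell where they were called. Of 42 members 1 rose (2.38%, beside 15.7% of all genes tested), 22 fell (52.4%, beside 12.6%) and 19 were not called. The median was -2.0. The secreted Frizzled-related inhibitor gene szl (sizzled), a BMP target, was at 1.596 and 1.358 CPM in injected embryos, against 58.3 and 75.0 CPM in wild type, which is 42.9-fold lower (log2 -5.49 ± 0.55, adjusted p 0.00047). The inhibitory Smad gene smad6 (ENSDARG00000031763, 1 of its copies) was at 0.07 and 0.10 CPM in injected embryos and 4.91 and 10.9 CPM in wild type (log2 -6.47 ± 0.80, adjusted p 0.0010). The caudal homeobox gene cdx4 was at 4.39 and 3.38 CPM in injected embryos and 101 and 354 CPM in wild type (log2 -5.87 ± 0.81, adjusted p 0.0014). The member that rose was the receptor gene bmpr1ba (33.6 and 34.0 CPM in injected embryos, 7.56 and 4.58 CPM in wild type). A bmp2 copy (ENSDARG00000041430), a ligand gene, was not called (63.1 and 65.6 CPM in injected embryos, 85.2 and 99.0 CPM in wild type), nor was the receptor gene acvr1l (435 and 439 CPM in injected embryos, 574 and 670 CPM in wild type). The other bmp2 copy (ENSDARG00000013409) had no count in any of the 4 libraries. Epidermal tp63 had 2.00 and 2.16 CPM in injected embryos and 3.51 and 4.75 CPM in wild type (adjusted p 0.16).

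Of 30 dorsal organizer genes 0 rose, 12 fell and 18 were not called in both fits, with a median of -1.45, and the number lower was 20 without wild-type replicate 1. In edgeR 1 member was higher at an unadjusted p under 0.05, DESeq2 called 0 higher, and 1 was higher without wild-type replicate 2 and 1 with library totals only. As a share of the 30 genes 40% fell, beside 12.6% of all genes tested, and 0 rose, beside 15.7%. The notochord homeobox gene noto was at 163 and 160 CPM in injected embryos and 81.3 and 106 CPM in wild type (log2 0.78 ± 0.35, adjusted p 0.11), above all 8 shield libraries but not called. The BMP antagonist gene chrd was at 133 and 135 CPM in injected embryos and 347 and 227 CPM in wild type (log2 -1.10 ± 0.42, adjusted p 0.072), below all 8 shield libraries but likewise not called. The organizer homeobox gene gsc fell to 20.4 and 19.7 CPM in injected embryos, against 63.57 and 60.03 CPM in wild type (log2 -1.62 ± 0.38, adjusted p 0.011). The Wnt antagonist gene frzb was at 1.43 and 1.36 CPM in injected embryos and 22.5 and 46.2 CPM in wild type (log2 -4.61 ± 0.63, adjusted p 0.0013). Of the forebrain factors expressed in the organizer region, otx2 fell by 4.72 ± 0.94 (adjusted p 0.0056) and a six3 copy (ENSDARG00000054879) by 6.24 ± 0.97 (adjusted p 0.0021). The maternal Wnt target dharma, an early organizer inducer, was at 1.13 and 1.04 CPM in injected embryos and 0.64 and 0.51 CPM in wild type and was not called (adjusted p 0.31).

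In the Wnt pathway 3 of 51 members rose, 24 fell and 24 were not called, with a median of -1.29. Thus 5.88% rose and 47.1% fell, beside 15.7% and 12.6% of all genes tested. Both wnt8a copies, ligand genes of the ventrolateral margin, fell. The first (ENSDARG00000078507) was at 25.37 and 24.96 CPM in injected embryos and 54.2 and 105 CPM in wild type (log2 -1.66 ± 0.46, adjusted p 0.022), and the second (ENSDARG00000052910) at 45.4 and 46.5 CPM in injected embryos and 79.3 and 161 CPM in wild type (log2 -1.39 ± 0.47, adjusted p 0.047, and 0.097 without the libraries labelled sperm). The 2 genes overlap on chromosome 14, so reads may have been shared or split between them in the counting. The non-canonical ligand gene wnt5b was at 2.99 and 4.56 CPM in injected embryos and 45.9 and 67.8 CPM in wild type (log2 -3.92 ± 0.48, adjusted p 0.00098). The 3 that rose were wnt4 (5.95 and 5.01 CPM in injected embryos, 1.51 and 2.46 CPM in wild type), a gsk3a copy (ENSDARG00000029501, 26.8 and 25.4 CPM in injected embryos, 8.92 and 8.73 CPM in wild type) and znrf3, a ubiquitin ligase that removes Frizzled receptors (30.0 and 30.2 CPM in injected embryos, 10.1 and 11.4 CPM in wild type). Of these the gsk3a copy also passed without the libraries labelled sperm. The gene of the transcriptional effector beta-catenin, ctnnb1, was at 799 and 802 CPM in injected embryos and 1427 and 1711 CPM in wild type and was not called (log2 -0.97 ± 0.42, adjusted p 0.11).

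In FGF signalling, which maintains mesoderm, feedback targets fell and the ligand gene fgf8 was not called. Of 33 members 1 rose (3.03%), 12 fell (36.4%), 19 were not called, and 1 more was lower in the fit of summed pairs alone. The median was -0.82. Among all genes tested 15.7% rose and 12.6% fell. Of the 12, 6 also passed without the libraries labelled sperm, and the number lower with library totals only was 6. The phosphatase gene dusp6, a feedback inhibitor and target of FGF signalling, was at a mean of 67.8 CPM in the injected libraries and 385 and 472 CPM in wild type (log2 -2.66 ± 0.43, adjusted p 0.0024). The receptor-binding flrt3 fell by 2.42 ± 0.44 (adjusted p 0.0037) and the inhibitor gene spred1 by 2.14 ± 0.47 (adjusted p 0.0088). The member that rose was the ligand gene fgf4, at 12.1 and 11.4 CPM in injected embryos and 3.25 and 0.68 CPM in wild type (log2 2.48 ± 0.65, adjusted p 0.017). The level of fgf8 was 51.9 and 47.7 CPM in injected embryos and 59.3 and 41.0 CPM in wild type, and the wild-type libraries spanned the injected ones. An fgfr1 copy (ENSDARG00000011027), a receptor gene, was likewise between the wild-type values, at 289 CPM in both injected libraries and 350 and 195 CPM in wild type.

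Of the genes of gastrulation movement and adhesion that were called, more fell than rose, and the abundant adhesion genes cdh1 and epcam were not called. As shares of the list 5.36% rose and 33.9% fell, beside 15.7% and 12.6% of all genes tested. Of 56 members 3 rose, 19 fell and 34 were not called, with a median of -0.94, and the number lower was 31 without either wild-type library. The number higher was 9 without wild-type replicate 1 and 1 among genes of at least 10 CPM. Beside wnt5b, the protocadherin genes pcdh19 (1.13 and 0.59 CPM in injected embryos, 6.31 and 28.5 CPM in wild type) and pcdh10 (0.60 and 0.80 CPM in injected embryos, 4.61 and 25.1 CPM in wild type) fell most. E-cadherin, encoded by cdh1 and required for epiboly, was at 783 and 807 CPM in injected embryos and 652 and 325 CPM in wild type (log2 0.70 ± 0.45, adjusted p 0.25). The epithelial adhesion gene epcam was at 552 and 571 CPM in injected embryos and 560 and 342 CPM in wild type, a range that holds 1 injected value. The planar cell polarity gene vangl2 was at 275 and 276 CPM in injected embryos and 602 and 477 CPM in wild type and was not called (adjusted p 0.087). A cxcr4 copy (ENSDARG00000041959), the receptor that guides endoderm and germ cells, was also not called (144 and 147 CPM in injected embryos, 331 and 286 CPM in wild type, adjusted p 0.061). The 3 that rose were aplnrb, the growth factor gene pdgfa and snai3, of which the last was under 1 CPM in every one of the 4 libraries.

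Posterior and presomitic mesoderm gave the lowest median of the 25 lists, -2.60. As shares of the list 4.88% rose and 51.2% fell, beside 15.7% and 12.6% of all genes tested. Of 41 members 2 rose, 21 fell and 18 were not called, and the number lower was 32 without wild-type replicate 1. The bHLH gene msgn1 (mesogenin), which sets presomitic mesoderm (chromosome 4, 292587 to 294558), was at 1.26 and 1.39 CPM in injected embryos, against 84.5 and 267 CPM in wild type. This is 106.1-fold lower (log2 -7.04 ± 0.83, adjusted p 0.00089), and the other 6 shield libraries held 143 to 289 CPM. The msgn1 log2 fold change was -7.66 without wild-type replicate 1 and -5.99 without replicate 2. The Ripply repressor gene ripply1, which acts at somite boundaries, was at 0.73 and 0.77 CPM in injected embryos and 25.5 and 57.7 CPM in wild type (log2 -5.78 ± 0.66, adjusted p 0.00083). The T-box gene tbx16l was at 0.90 and 1.04 CPM in injected embryos and 31.9 and 63.5 CPM in wild type (log2 -5.61 ± 0.60, adjusted p 0.00067). Transcripts of the pan-mesodermal T-box genes were present in both groups: tbxta (no tail) stood at 107 and 112 CPM in injected embryos and 664 and 668 CPM in wild type (log2 -2.60 ± 0.43, adjusted p 0.0025). Transcripts of tbx16 (spadetail) stood at 498 and 506 CPM in injected embryos and 1231 and 816 CPM in wild type, not called (log2 -1.03 ± 0.45, adjusted p 0.11). The second brachyury gene, tbxt, was at 0.998 and 0.627 CPM in injected embryos and 9.98 and 36.9 CPM in wild type (adjusted p 0.0038). The retinoic acid synthase gene aldh1a2 was at 3.92 and 4.18 CPM in injected embryos and 73.9 and 161 CPM in wild type (log2 -4.85 ± 0.64, adjusted p 0.0012), whereas cyp26a1, which degrades retinoic acid, was not called (111 and 107 CPM in injected embryos, 126 and 223 CPM in wild type). The 2 that rose were the Hairy-related her11 (17.49 and 17.97 CPM in injected embryos, 4.61 and 2.8 CPM in wild type) and a notch1 copy (ENSDARG00000052094), while the more abundant notch1 copy (ENSDARG00000103554) was not called. DESeq2 called 1 member higher.

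Of 53 neural patterning genes 7 rose, 15 fell, 30 were not called and 1 more was lower in the fit of summed pairs alone, with a median of -0.85. Thus 13.2% rose, near the 15.7% over all genes tested, and 28.3% fell, beside 12.6%. Lower members numbered 26 without wild-type replicate 1, and the number higher was 11 without replicate 2 and 2 among genes of at least 10 CPM. DESeq2 called 2 higher and 17 lower. Of the 7 that rose, her5 and her11 were above 5 CPM in injected embryos, and the other 5, sox1, rx3, hoxd4 and an irx1 copy among them, were under 2 CPM in every injected library. Beside sox2 and the six3 copy, the head gene otx2 fell, with 0.53 and 0.07 CPM in injected embryos and 3.10 and 13.6 CPM in wild type.

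Genes of the enveloping layer, the outer epithelium of the embryo, were mostly lower in the injected embryos where they were called. Of 42 members 1 rose (2.38%, beside 15.7% of all genes tested), 21 fell (50%, beside 12.6%) and 20 were not called. Their median was -1.85, and the 42 summed to 3371 and 3415 CPM in injected embryos and 8464 and 4747 CPM in wild type. The other 6 shield libraries summed to 7645 to 19330 CPM, so this list varied widely among shield groups too. Keratin krt4 was at 200 and 206 CPM in injected embryos and 1252 and 721 CPM in wild type (log2 -2.28 ± 0.52, adjusted p 0.010). The type I keratin gene cyt1 was at 2.26 and 2.02 CPM in injected embryos and 68.4 and 54.3 CPM in wild type (log2 -4.84 ± 0.49, adjusted p 0.00051). The secretory-cell gene agr1 was at 0.23 and 0.35 CPM in injected embryos and 6.61 and 6.11 CPM in wild type, and the desmosomal plakophilin gene pkp1 at 0.37 and 0.35 CPM in injected embryos and 8.84 and 9.84 CPM in wild type. The member that rose was the membrane protease gene tmprss4b, at 36.9 and 39.0 CPM in injected embryos and 10.8 and 4.66 CPM in wild type (log2 2.27 ± 0.51, adjusted p 0.0097), and 7 members were higher without wild-type replicate 1.

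The yolk syncytial layer, which feeds the embryo from the yolk, gave 4 that rose, 15 that fell and 18 not called of 37, with a median of -0.86. Thus 10.8% rose, under the 15.7% over all genes tested, and 40.5% fell, beside 12.6%. The lipoprotein genes apoa1b (0.76 and 0.49 CPM in injected embryos, 6.16 and 21.9 CPM in wild type) and apoa1a (0.73 and 0.91 CPM in injected embryos, 6.73 and 16.2 CPM in wild type) fell, as did the phospholipase gene pla2g12b (1.16 and 0.91 CPM in injected embryos, 9.90 and 17.7 CPM in wild type). These 3 genes were higher still in the other 6 shield libraries, at 20.1 to 79.6 CPM. Beside mxtx2, the genes that rose, apobb.2 and fgb among them, were under 3 CPM in each injected library. The yolk protease gene ctsla was not called (1580 and 1598 CPM in injected embryos, 1663 and 1954 CPM in wild type). The number that fell was 9 among genes of at least 10 CPM, and 2 of the 4 that rose also passed without the libraries labelled sperm. DESeq2 called 1 higher.

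**Figure D3:**
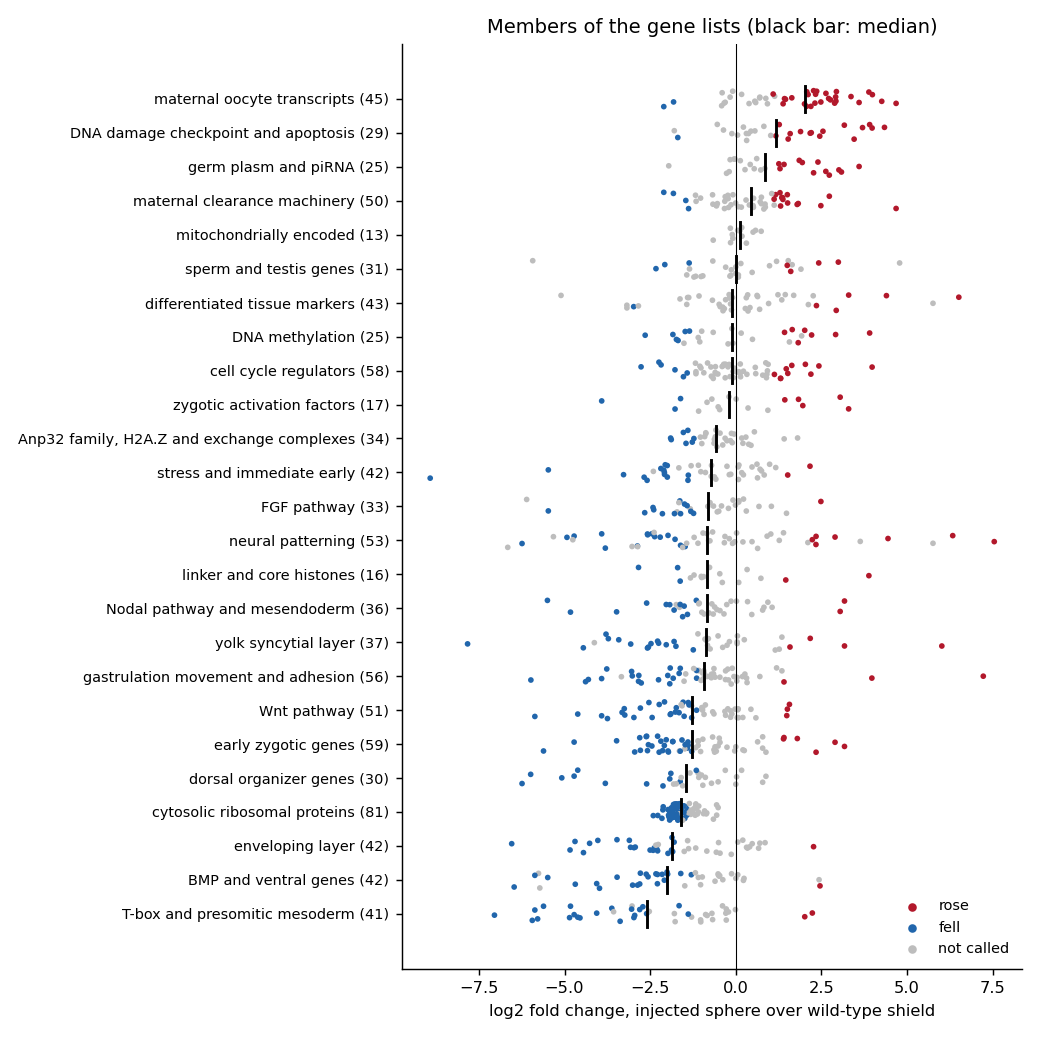
Log2 fold change of injected sphere over wild-type shield embryos for each member of the 25 gene lists, 1 point a gene, with the number of members tested after each list's name. Red points rose, blue points fell, grey points were not called in both fits, and black bars are medians, which run from 2.01 for maternal oocyte transcripts to -2.60 for T-box and presomitic mesoderm genes.

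Of 58 cell cycle regulators 10 rose, 6 fell and 42 were not called, so that 17.2% rose and 10.3% fell, near the 15.7% and 12.6% over all genes tested. The median was -0.12, and 0.26 with library totals only, where the median of all genes was 0.37. The number higher was 18 without wild-type replicate 1, 16 without replicate 2 and 6 without the libraries labelled sperm, and the number lower was 19, 12 and 3 under the same settings. The Cdk inhibitor gene cdkn1a (p21) was at 65.5 and 64.3 CPM in injected embryos and 5.93 and 2.04 CPM in wild type (log2 3.98 ± 0.52, adjusted p 0.0012). The checkpoint kinase gene chek2 was at a mean of 73.5 CPM in the injected libraries and 12.6 and 14.7 CPM in wild type (log2 2.42 ± 0.34, adjusted p 0.0015), and the maternal cyclin gene ccna1 at 898 and 902 CPM in injected embryos and 263 and 131 CPM in wild type (log2 2.19 ± 0.45, adjusted p 0.0066). Of the genes that fell, the replication licensing genes mcm3 (log2 -2.24 ± 0.45) and an mcm6 copy (ENSDARG00000057683, -2.77 ± 0.57) and the G1/S cyclin gene ccne2 (-2.18 ± 0.47) had the largest changes. The mitotic cyclin genes ccnb1 (1180 and 1173 CPM in injected embryos, 885 and 1252 CPM in wild type) and ccna2 (1106 and 1107 CPM in injected embryos, 1224 and 1368 CPM in wild type) were not called.

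For the Anp32 family, H2A.Z and the complexes that exchange it, 0 of 34 members rose, beside 15.7% of all genes tested. The median of the list was -0.57, and 27 members were not called. Another 7 fell (20.6%, beside 12.6% of all genes tested). The count was 18 without wild-type replicate 1, 11 without replicate 2, 2 with library totals only and 0 without the libraries labelled sperm, so it depends on which libraries give the spread. In edgeR 1 member was higher at an unadjusted p under 0.05 and DESeq2 called 0 higher, while 5 were higher without wild-type replicate 1 and 1 without replicate 2. Beside anp32e, its paralogs anp32a (209 and 210 CPM in injected embryos, 590 and 979 CPM in wild type) and anp32b (520 and 511 CPM in injected embryos, 1175 and 1804 CPM in wild type) were lower, with log2 fold changes of -1.90 ± 0.46 and -1.53 ± 0.46. The other members that fell were macroh2a1, a histone variant gene, and yeats4, kat5a and ino80b, genes of chromatin-remodelling and acetylation complexes. The H2A.Z gene h2az2 was at 348 and 347 CPM in injected embryos and 369 and 651 CPM in wild type and was not called (log2 -0.55 ± 0.44, adjusted p 0.36). The acetyltransferase complex gene trrap was between the wild-type values (437 and 427 CPM in injected embryos, 485 and 220 CPM in wild type).

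Histone genes and their partners gave 2 that rose, 3 that fell and 11 not called of 16, so that 12.5% rose and 18.8% fell, beside 15.7% and 12.6% of all genes tested. The oocyte-type stem-loop binding protein gene slbp2 was at 85.2 and 85.9 CPM in injected embryos and 7.56 and 3.82 CPM in wild type (log2 3.88 ± 0.44, adjusted p 0.00080), whereas slbp, the somatic one, was at 238 and 242 CPM in injected embryos and 578 and 980 CPM in wild type (log2 -1.70 ± 0.47, adjusted p 0.023, and 0.089 without the libraries labelled sperm). The histone gene h3f3a was lower (861 and 872 CPM in injected embryos, 1829 and 3512 CPM in wild type, adjusted p 0.038, and 0.16 without the libraries labelled sperm). So was the linker histone gene h1-10 (1.23 and 0.73 CPM in injected embryos, 6.65 and 7.55 CPM in wild type). The other gene that rose was a copy of asf1b (ENSDARG00000043713), a histone chaperone gene. The number lower was 10 and 7 without wild-type replicate 1 and 2, and 6 with DESeq2, and the number higher was 4 without wild-type replicate 2. Each direction held 1 gene without the libraries labelled sperm.

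Of 25 DNA methylation genes 7 rose (28%), 6 fell (24%) and 12 were not called, with a median of -0.12. Over all genes tested 15.7% rose and 12.6% fell. With library totals only the median was 0.25, where that of all genes was 0.37. The maintenance methyltransferase gene dnmt1, picked out after its value was seen, was at 603 and 610 CPM in injected embryos and 206 and 247 CPM in wild type (log2 1.42 ± 0.37, adjusted p 0.018, and 0.083 without the libraries labelled sperm). The de novo methyltransferase gene dnmt3bb.2 was at 271 and 277 CPM in injected embryos and 765 and 1056 CPM in wild type (log2 -1.73 ± 0.43, adjusted p 0.015, and 0.087 without the libraries labelled sperm). A copy of tdg (ENSDARG00000013004), a glycosylase gene of active demethylation, was at 20.6 and 20.4 CPM in injected embryos and 92.7 and 164 CPM in wild type (log2 -2.65 ± 0.47, adjusted p 0.0033). The partner of dnmt1, uhrf1, was at 839 and 833 CPM in injected embryos and 956 and 816 CPM in wild type and was not called. Members lower numbered 3 without the libraries labelled sperm and 3 with library totals only, and members higher 4 among genes of at least 10 CPM.

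Genes of the DNA damage checkpoint and apoptosis were the other list with a median above 1. Of 29 members 15 rose (51.7%, beside 15.7% of all genes tested), 1 fell (3.45%, beside 12.6%) and 13 were not called. The median was 1.17, and 13 of the 15 also passed without the libraries labelled sperm. The 29 members summed to 4498 and 4523 CPM in injected embryos and 2409 and 2531 CPM in wild type, and to 2875 to 2984 CPM in the other 6 shield libraries. The pro-apoptotic gene bbc3 (Puma, chromosome 15, 23809951 to 23826315) was at 189 and 193 CPM in injected embryos and 12.8 and 5.77 CPM in wild type (log2 4.34 ± 0.46, adjusted p 0.00066). With cdkn1a, a copy of the DNA damage gene gadd45a (ENSDARG00000043581) rose from the same list, at 61.6 and 59.3 CPM in injected embryos and 5.33 and 2.54 CPM in wild type (log2 3.91 ± 0.50, adjusted p 0.0011). The ubiquitin ligase gene mdm2, picked out after its value was seen, was at 265 and 271 CPM in injected embryos and 74.0 and 44.8 CPM in wild type (log2 2.17 ± 0.38, adjusted p 0.0031). The cyclin gene ccng1 was not called (1475 and 1479 CPM in injected embryos, 1083 and 1290 CPM in wild type). The member that fell was another cyclin gene, ccng2, at 24.5 and 26.8 CPM in injected embryos and 104 and 61.6 CPM in wild type (log2 -1.69 ± 0.43, adjusted p 0.016).

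Of 42 stress and immediate early genes 2 rose, 14 fell and 26 were not called, with a median of -0.71. Thus 4.76% rose and 33.3% fell, beside 15.7% and 12.6% of all genes tested. The 2 that rose were the endoplasmic reticulum chaperone gene hspa5 (372 and 361 CPM in injected embryos, 94.4 and 68.8 CPM in wild type) and jun (33.5 and 31.1 CPM in injected embryos, 12.4 and 10.1 CPM in wild type). The level of jun reached 33.3 CPM among the other 6 shield libraries, within the injected range. The small heat shock protein gene hspb1 was at 347 and 360 CPM in injected embryos and 1132 and 2091 CPM in wild type (log2 -2.19 ± 0.55, adjusted p 0.015), and the inflammatory cytokine gene il1b at 1.86 and 2.26 CPM in injected embryos and 11.04 and 6.275 CPM in wild type (adjusted p 0.012). The inducible chaperone gene hsp90aa1 was at 2.83 and 3.17 CPM in injected embryos and 13.8 and 11.9 CPM in wild type, while the other 6 shield libraries ran from 15.7 to 315 CPM. The number lower was 7 with library totals only and 4 among genes of at least 10 CPM, and the number higher was 7 and 6 without wild-type replicate 1 and 2.

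Cytosolic ribosomal protein genes had a lower fitted level in the injected embryos for all 81 members under TMM scaling. Of these 0 rose (beside 15.7% of all genes tested), 47 fell (58%, beside 12.6%) and 34 were not called. The median was -1.61. In both injected libraries 79 were below all 8 shield libraries, as were 26.8% of all genes tested. All 81 members summed to 9184 and 9091 CPM in injected embryos and 15750 and 35590 CPM in wild type, so wild-type replicate 2 held more than 2 times the level of replicate 1. Lower members numbered 80 without wild-type replicate 1, 24 without the libraries labelled sperm, 73 with DESeq2 and 9 with library totals only. In edgeR 0 members were higher at an unadjusted p under 0.05, and DESeq2 called 0 higher. The abundant rpl12 was at 490 and 488 CPM in injected embryos and 554 and 985 CPM in wild type and was not called (adjusted p 0.29). The 13 genes encoded by the mitochondrial genome were all uncalled, where 28.3% of all genes tested were called. Their median was 0.12, and they summed to 13540 and 13710 CPM in injected embryos and 14990 and 12570 CPM in wild type. In edgeR 0 of the 13 passed an unadjusted p under 0.05 and DESeq2 called 0, while 2 were higher without wild-type replicate 1 and 1 was lower without replicate 2.

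Markers of cell types that a blastula or early gastrula should lack were low in both groups. Of 43 markers of differentiated tissues 5 rose, 1 fell and 37 were not called. Thus 11.6% rose and 2.33% fell, both under the 15.7% and 12.6% over all genes tested. The sum of these markers was 234 CPM in both injected libraries and 221 and 304 CPM in wild type. Of it a stmn1 copy (ENSDARG00000004169) gave 193 and 194 CPM in injected embryos and 185 and 258 CPM in wild type. The 5 that rose were the blood factor tal1 (4.22 and 4.21 CPM in injected embryos, 0.42 and 0.76 CPM in wild type) and tnnt2 and copies of snap25, cela1 and mitf, which were under 3 CPM in each library. The blood gene gata1a and the leukocyte gene lyz had no count in the injected libraries. Of 31 sperm and testis genes 4 rose, 3 fell and 24 were not called, so that 12.9% rose and 9.68% fell, near the 15.7% and 12.6% over all genes tested. Of the 3 that fell 1 also passed without the libraries labelled sperm, 1 was lower with library totals only, and DESeq2 called 2 higher. The list had a sum of 190 and 197 CPM in injected embryos and 258 and 226 CPM in wild type. Among them odf2b, a centrosomal and sperm tail gene, was at 52.47 and 53.03 CPM in injected embryos and 126 and 145 CPM in wild type (adjusted p 0.021, and 0.098 without the libraries labelled sperm). Of the 4 that rose, cyp17a1 was at 65.0 and 68.8 CPM in injected embryos and 28.6 and 18.5 CPM in wild type (adjusted p 0.013). Another, cfap52, was at 6.52 and 6.09 CPM in injected embryos and 2.38 and 1.70 CPM in wild type (adjusted p 0.024, and 0.067 without the libraries labelled sperm). The glycolytic sperm isoform gene gapdhs was at 6.52 and 7.97 CPM in injected embryos, between 30.0 and 2.04 CPM in wild type, and the sign of its difference depends on the wild-type library. These counts rest on genes of low level: DESeq2 called 3 tissue markers higher, and none of the 5 that rose was tested among genes of at least 10 CPM. Whether other cell types had a part in any result above was not tested.

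Outside the lists, the largest changes among genes with a name of their own were these. The largest rise was that of zgc:158463 (chromosome 5, 825788 to 827000), at 2874 and 2872 CPM in injected embryos and 10.5 and 0 CPM in wild type (log2 9.01 ± 2.06, adjusted p 0.031). This gene followed the mother's genotype among shield embryos, with 3728 to 3810 CPM in null and maternal null embryos and 9.80 and 11.6 CPM in paternal null embryos, and it passed in neither fit that left out 1 wild-type library, nor with RLE scaling (adjusted p 0.064). In these crosses the mother's genotype goes with her strain (NHGRI or Tu), and the strain of the injected embryos is not given. A difference of strain therefore cannot be told apart from stage and injection for zgc:158463. Next came si:ch211-239d6.4 (39.4 and 39.1 CPM in injected embryos, 0.98 and 0.51 CPM in wild type) and its neighbour si:ch211-239d6.2 (127 and 126 CPM in injected embryos, 5.22 and 1.36 CPM in wild type). The Wnt agonist gene rspo1 was at 21.2 and 23.6 CPM in injected embryos and 1.096 and 0.678 CPM in wild type (log2 4.59 ± 0.46, adjusted p 0.00047). The zinc finger genes znf1125 and znf1126 of chromosome 4 rose by log2 4.34 ± 0.48 and 4.29 ± 0.47, the transcriptional cofactor gene bcl3 by 4.22 ± 0.49, and sun1a, of the complex that links nucleus and cytoskeleton, by 4.13 ± 0.39. Among the falls, krt91 was at 0.17 and 0.10 CPM in injected embryos and 40.6 and 12.4 CPM in wild type (log2 -7.58 ± 1.01, adjusted p 0.0013). Its level ran from 15.6 to 156 CPM in the other shield libraries. On chromosome 19 krt91 overlaps cyt1, so reads may have been shared or split between these genes in the counting. The ferritin genes fthl28 and fthl31, of iron storage, fell by 7.42 ± 0.71 and 5.76 ± 0.77. The amino acid transporter gene slc7a2 was at 1.13 and 0.73 CPM in injected embryos and 32.8 and 21.0 CPM in wild type, but ran from 0.20 to 18.9 CPM in the other shield libraries. By comparison spata6l, at 1.16 and 0.97 CPM in injected embryos and 40.1 and 58.4 CPM in wild type, held 42.7 to 58.8 CPM in them.

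The wild-type libraries were set beside the other shield embryos as a second reference for the same genes. Of the genes that rose, 97.2% were above all 8 shield libraries in both injected libraries, and of those that fell, 91.5% were below all 8. Over all genes tested the shares above and below all 8 were 31.9% and 26.8%, and the calls were made with the same wild-type libraries, so these shares describe the calls and do not test them. Measured as the root mean square difference of log2(CPM + 1) from the injected libraries, wild-type replicate 1 was nearest (0.96) and the null libraries farthest (1.29), with maternal null (1.04), paternal null (1.04) and wild-type replicate 2 (1.17) between. The distance within the injected pair was 0.13 and within the wild-type pair 0.57.

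**Figure D4:**
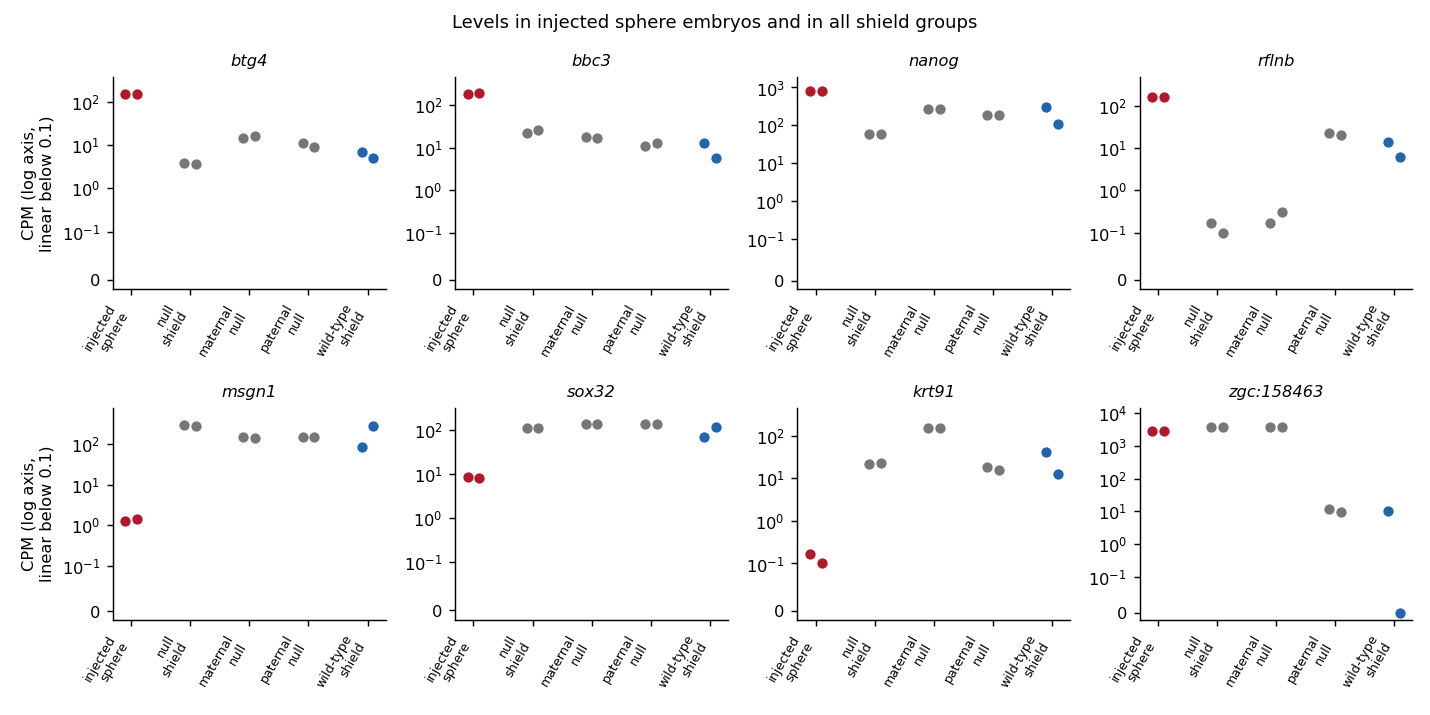
Levels (TMM-scaled CPM, log axis, linear below 0.1) of 8 genes in the injected sphere libraries (red), the null, maternal null and paternal null shield libraries (grey) and the wild-type shield libraries (blue), 1 point a library. For btg4, bbc3 and nanog the injected points lie above every shield point, and for msgn1, sox32 and krt91 below. For zgc:158463 they lie near the null and maternal null points, and for rflnb the null and maternal null points lie far below the rest.

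The wild-type libraries did not stand at the same distance from the injected embryos. Wild-type replicate 1 lay between the injected libraries and replicate 2 for 75.1% of the genes that rose and 67.2% of those that fell, and replicate 2 lay between for 22.9% and 32.5%. The median difference from the injected libraries in genes that rose was 1.36 log2 units for replicate 1 and 1.64 for replicate 2. For msgn1, cdx4, sox17 and the brachyury gene tbxt, replicate 1 had the lower of the wild-type values, and for nanog, cth1 and ccna1 the higher. More genes were called when either wild-type library was left out, since the spread between them then no longer enters the test. Only the pair labelled sperm then gives the spread. The larger numbers therefore add nothing to the evidence for the calls.

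**Figure D5:**
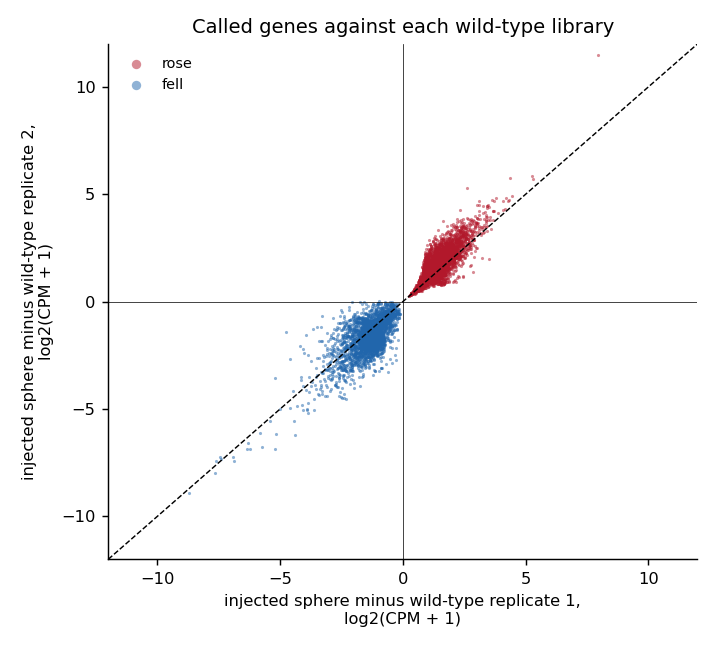
Difference in log2(CPM + 1) between the injected libraries and wild-type replicate 1 (horizontal) or replicate 2 (vertical) for genes that rose (red) and fell (blue). The dashed line marks equal differences. Most red points lie above it and most blue points below it, that is, farther from the injected libraries in replicate 2 than in replicate 1.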

How the data were processed

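RNA of whole embryos was made into stranded libraries after removal of ribosomal RNA, per the labels' protocols. The authors deposited raw read counts for Ensembl genes. The tools named, per the submitters' processing notes, are Novoalign 2.8 and DESeq2, with no role given. Coordinates are headed Zv10 per the file headers. No source used here states the counter, its strand setting or the annotation release, so reads of near-identical or overlapping genes may be split or shared. The table holds 22737 genes, and the lowest maximum over its libraries is 10 counts. Of them 20669 had a symbol, 2828 share one and are named by their identifier.

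The counts went into edgeR 4.0.16 with R 4.3.3 (robust quasi-likelihood F test, TMM, filterByExpr, false discovery rate 0.05) in 1 fit of all 6 groups. Pairs with a chi-square per degree of freedom under 1.5, computed on genes that reached 20 counts over both libraries, were summed, which left 2 residual degrees of freedom. The fits were tested on simulated data, and DESeq2 1.42.0 was an alternative. Fold values are summed counts over summed scaled totals, with a floor of 3 counts over the group, and cover counting error only.

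Named genes were anp32e, the 12 largest changes in each direction of at least 20 CPM with a symbol of their own, up to 3 called members a direction of at least 5 CPM and up to 2 uncalled members of each list, and stage landmarks; a few genes that the rule named are not reported here. List symbols absent from the table were matched without their duplicate letter, a step chosen after seeing the names. The members and the lists were chosen with earlier results of these data known. No sequence was used here.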

Additional observations from a re-analysis of the deposited data

How the results depend on the processing

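The count of genes called was 6514, with 3590 higher and 2924 lower in injected embryos. With every library as its own replicate it was 13540 (6709 higher, 6831 lower), and with a replicate block added to that fit 13429 (6678 higher, 6751 lower). Whether the numbers pair the samples could not be judged, because the injected libraries are near-identical, and no paired analysis of the summed samples was possible because the injected group is then 1 sample. With the injected sample and the wild-type libraries alone 1831 genes were lower, without the libraries labelled sperm 1937, and with library totals only 1481. That last scaling moved the median of all genes to 0.37 log2 units and the share of called genes that were higher to 74.0%, against 55.1%, RLE scaling moved it to 49.8% and DESeq2 to 45.0%. Among genes of at least 10 CPM in the higher group, 3455 of 10598 were called (2020 higher, 1435 lower), since fewer were tested. Leaving out 1 library at a time gave 6040 to 11684 called (3321 to 6063 higher, 2719 to 5621 lower). The gapdhs log2 fold change was 1.82 without wild-type replicate 1 and -2.05 without replicate 2, against -1.17 with both. The medians of the lists of zygotic activation, cell cycle, DNA methylation, differentiated tissue and sperm genes changed sign with scaling, which also moved the median of all genes. Of the 112 called genes that the rule names, 18 were not called without the libraries labelled sperm (among them anp32e, anp32a, anp32b, h3f3a and cnot3). With the injected sample and the wild-type libraries alone 17 were not called. Another setting, library totals only, left 10 not called (among them both wnt8a copies, anp32b, h3f3a, ccng2, il1b, odf2b and ndr2). The number was 3 with RLE scaling (among them zgc:158463 and zar1) and 3 with DESeq2 (among them wnt4 and zar1). Depth limits genes near 0: 72 of the genes that rose had no count in wild type and 147 of those that fell had none in injected embryos, and their fitted changes depend on the prior count.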

Other observations

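The 2 sets below were picked after their values were seen, hold genes with no name in the tables used here or a family name only, and were given no test of the set.

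A short stretch of chromosome 4 (28738984 to 28754891 in Zv10 coordinates) held 17 features of 74 to 83 bases with no symbol. Of these 13 rose in injected embryos and 0 fell, and 11 rose by over 16-fold, as did 243 of all 22712 genes tested. All 17 were above all 8 shield libraries in both injected libraries, as were 31.9% of all genes tested. They summed to 472 and 481 CPM in injected embryos, 76.0 and 2.97 CPM in wild type, and 2.68 to 31.4 CPM in the other shield libraries. The feature ENSDARG00000091671 was at 55.6 and 55.9 CPM in injected embryos and 0.45 and 0.08 CPM in wild type (log2 7.43, adjusted p 0.00040). Reads of features this short may be shared with similar copies. RefSeq's gene table lists the dre-mir-430 genes, of a family of microRNAs known for clearing maternal mRNA in zebrafish, on chromosome 4 of another genome build, and they were not matched to these identifiers. As a whole chromosome 4 had 161 genes that rose (11.5%) and 249 that fell (17.7%) of 1406, the highest share of falls of any chromosome. Over all genes tested 15.7% rose and 12.6% fell. Of the 97 genes of chromosome 4 with a znf symbol 27 fell and 6 rose, with a median of -0.88. On other chromosomes 24 of 139 genes with a znf symbol fell and 17 rose, with a median of -0.53. The median of all genes tested was 0.00206. Whether either group of znf genes differs from all genes was not tested.

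Chromosome 11 held the largest fitted fall of the table. From 11355182 to 12654337 there were 46 features of 289 to 298 bases with no symbol, of which 18 fell, 13 of them by over 16-fold, and 2 rose. Over all 22712 genes tested 12.6% fell, 411 genes by over 16-fold, and 15.7% rose. The feature ENSDARG00000098102 was at 0.07 and 0.14 CPM in injected embryos and 458 and 523 CPM in wild type (log2 -12.19, adjusted p 8.5e-05). The feature ENSDARG00000105284 was at 5.89 and 4.91 CPM in injected embryos and 1299 and 1606 CPM in wild type. Among the same neighbours, 16 genes carry the family name Metazoa_SRP, which stands for the RNA of the signal recognition particle, and 6 of them fell and 0 rose. These 16 summed to 526 and 499 CPM in injected embryos, 1683 and 1852 CPM in wild type and 1962 to 3844 CPM in the other shield libraries. The 46 features summed to 12080 and 11850 CPM in injected embryos and 16310 and 22630 CPM in wild type, so the sum moved far less than single features did. How reads were assigned among similar copies is not given in the sources used here.

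Among shield embryos 6 genes split by over 8-fold with the mother's genotype and 0 with the father's. Null fish are of strain NHGRI and wild-type fish of Tu, so a parent's genotype cannot be told apart from its strain here. The injected embryos were nearer to the embryos of wild-type mothers for 5 of the 6 and nearer to those of null mothers for zgc:158463. One of the 5, rflnb, was at 158 and 161 CPM in injected embryos, at 13.6 and 6.02 CPM in wild type and at 0.10 to 0.31 CPM in null and maternal null embryos.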
